A study of Mus musculus with 4 samples.

Results

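Metallothionein and zinc transport genes were followed in S-180 cells, a mouse sarcoma line grown by transplantation or in culture, after fluoxetine, a selective serotonin reuptake inhibitor. The genes were Mt1, Mt2, Mtf1, Slc30a1, Slc30a2, Slc30a4, Slc30a5, Slc39a1, Slc39a10 and Slc39a14. Probes were assigned to them by transcript accession, which gave 14 probes for 10 genes among 56605 distinct probes and 23785 gene symbols on the array. The fluoxetine group held 2 cultures given 20 µM of the drug for 12 h, and the control group held 2 cultures kept for the same 12 h without it. All cultures grew in medium with serum, and the labels name no genetic change, vehicle or treatment common to both groups. The labels call the samples biological replicates without saying how the cultures were separated, and a p-value here reflects no more than the scatter among these 4 samples.

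Metallothioneins are small cysteine-rich proteins of the cytosol that bind zinc, copper and cadmium, and Mt1 and Mt2 are the forms made in most mouse tissues. Their transcription is driven by MTF1, a zinc-finger factor that binds metal response elements in promoters when free zinc is high, and in mouse MTF1 also switches on the zinc exporter gene Slc30a1. Transporters of the SLC30 family (ZnT) move zinc out of the cytosol, to the outside or into vesicles, and those of the SLC39 family (ZIP) move it into the cytosol.

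The promoter of Mt2 and single stretches from those of Mt1 and Slc30a1 are shown because these 3 genes are the classic MTF1 targets among the 10. RefSeq promoter sequences of build GRCm38.p6 were found for 9 of the genes and not for Slc39a14. The 250 bases before each listed start were searched on both strands for the core of the metal response element in the forms TGCACNC and TGCGCNC, where N is any base, and no other motif was searched. Capitals mark the matches and run as GNGTGCA or GNGCGCA where the match is on the other strand.
Mt2, chr8:94172368-94172617, plus strand: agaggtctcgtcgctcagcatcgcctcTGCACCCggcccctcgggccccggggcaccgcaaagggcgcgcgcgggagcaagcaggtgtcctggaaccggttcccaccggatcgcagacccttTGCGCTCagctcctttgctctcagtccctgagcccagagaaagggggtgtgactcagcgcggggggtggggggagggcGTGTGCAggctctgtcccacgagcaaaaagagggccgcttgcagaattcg
Mt1, chr8:94179055-94179083, plus strand: cggtcccgctgTGCACACtggcgctccag
Slc30a1, chr1:191906727-191906755, plus strand: acgggggttccGAGTGCAaagcaaagttt
Mt2 held 3 matches, which lay 223 to 217, 128 to 122 and 50 to 44 bases before the start. Mt1 held 1 match, 23 to 17 bases before the listed start, and Slc30a1 held 1, 43 to 37 bases before it. The starts listed for Mt1 and Slc30a1 lie inside the annotated span of each gene, so other starts may exist upstream. Bases after the listed starts were not searched, so these counts cover the windows only and may miss matches on either side. At least 1 match was present for 6 of the 9 genes, and in 21.4% of all 32851 promoter windows of the same length. The first count is by gene and the second by window, and the 9 genes include the 3 classic targets. Enrichment of the motif was not tested. Windows with 3 or more matches made up 1.26% of them.

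Single-colour Agilent arrays were used, and each value is the spot intensity on a log2 scale minus the 75th percentile of its array, so that 0 is that percentile. Between 51.7% and 53.5% of non-control spots were well above background on each array, and 0 were saturated. All 14 probes of the 10 genes were well above background on all 4 arrays. The arrays shared 1 slide and 1 scan, with both arrays of a group side by side, so slide position cannot be told apart from treatment. Among marker genes of the labelled cell type, 5 of 8 mesenchymal markers were well above background on both fluoxetine arrays and 6 of 8 on both control arrays. Vim, Cd44, S100a4 and Fn1 were among them, and Thy1 and Pdgfrb were not well above background. Of the 6 mesenchymal markers tested, 2 passed, Col1a1 and Col1a2. Col1a1 fell by 0.46 ± 0.09 (adjusted p = 0.0382, limma). Its intensities were low, 27.5 and 29.1 with fluoxetine and 42.2 and 43.5 in control. A dimmer Col1a1 probe was well above background on neither fluoxetine array. Col1a2 was well above background on neither fluoxetine array and on both control arrays. It entered the test only through the control arrays, where it was high, so its pass carries no weight. Of the other cell types, 3 of 6 leukocyte, 3 of 4 epithelial, 1 of 3 endothelial and 1 of 2 erythroid markers with a probe were bright in each group. The pan-leukocyte marker Ptprc was not well above background, and the erythroid marker Hbb-bs had no assigned probe. Krt8 and Krt18, keratin genes of simple epithelia, and Epcam were bright in both groups, and Krt18 was lower with fluoxetine (−0.37 ± 0.08). The leukocyte markers Cd68 (1.36 ± 0.11) and Cd3e (0.49 ± 0.09) and the globin gene Hba-a1 (2.06 ± 0.07) rose and Itgam fell (−1.99 ± 0.07). Cd3e and Itgam each had a dimmer probe with a change of opposite sign, and the groups overlapped for both dimmer probes. The dimmer Itgam probe entered the test only through the fluoxetine arrays, so its change carries no weight. The part of these marker genes in the results below was not tested. In bulk RNA, fewer cells of a type and less RNA per cell cannot be told apart.

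The comparison asked which of these transcripts differ in amount after fluoxetine. The zinc importer gene Slc39a14 rose 1.46-fold, and 2 zinc exporter genes fell, Slc30a1 to 0.734-fold and Slc30a5 to 0.777-fold. The metallothionein genes Mt1 and Mt2 and the factor gene Mtf1 did not pass the test, with fitted folds of 1.06, 0.989 and 1.16. A change is fluoxetine minus control on the log2 scale, an error after ± is its standard error (limma, n = 2 arrays per group), and "rose" and "fell" mean an adjusted p under 0.05 over all 13539 genes tested. Of the 10 genes, 1 rose, 2 fell and 7 did not pass. Over all genes tested, 28.1% were called, 16.3% higher and 11.8% lower, so 3 of 10 is near the background. The groups did not overlap for 8 of the 10 genes, against 73.1% of all genes. The median change of the 10 was 0.12, beside 0.02 over all genes tested. Over 14 other settings, the call of Slc39a14 held under 8, that of Slc30a5 under 6 and that of Slc30a1 under 3. The dimmer probe of Slc30a5 had a change of 0.05 and did not pass.

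**Figure D1:**
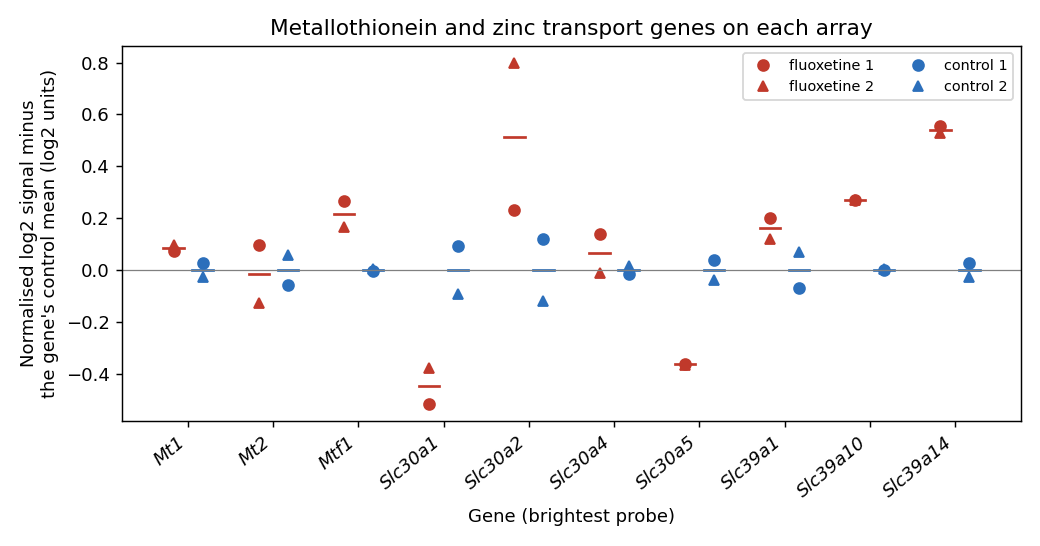
Normalised log2 signal of the brightest probe of each gene on each array, minus the mean of the control arrays for that gene (log2 units), with fluoxetine arrays in red, control arrays in blue and a bar at each group mean. Both fluoxetine arrays lie above both control arrays for Slc39a14 and below them for Slc30a1 and Slc30a5, while the groups overlap for Mt2 and Slc30a4.

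With any 1 array left out, the lone array of its group was assumed to vary like the other group, and limma called 0 of the 10 genes, with 3 of them at an unadjusted p under 0.05 in each case. Over all genes it then called 575 genes when control 1 was dropped, 2219 when control 2 was dropped and 0 when either fluoxetine array was dropped, against 3802 with all arrays. The fits lacking fluoxetine 1 and fluoxetine 2 held 4217 and 4590 genes at an unadjusted p under 0.05. The smallest p that exact permutation of 2 against 2 arrays allows is 0.333 (two-sided).

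Mt1, the first of the cytosolic zinc buffers, had normalised log2 levels of 6.40 and 6.42 on the fluoxetine arrays and 6.35 and 6.30 on the control arrays. Its deposited intensities were 46733 and 55184 with fluoxetine and 55235 and 49670 in control before scaling. Both scaled fluoxetine values were above both control values, by less than the test could call. The change was 0.08 ± 0.07 (adjusted p = 0.391, limma), with a 95% interval from −0.11 to 0.28.

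Mt2, its neighbour on the chromosome, stood at 7.17 and 6.94 on the fluoxetine arrays and at 7.01 and 7.13 on the control arrays. The groups overlapped, with fluoxetine 1 the highest array and fluoxetine 2 the lowest. The change was −0.02 ± 0.11 (adjusted p = 0.922, limma), and its 95% interval ran from −0.33 to 0.30. Its sign was positive under quantile scaling (0.039). The change of Mt2 was no smaller in size than that of 3.22% of all genes tested, and that of Mt1 no smaller than that of 17.4%. The files hold no probe sequences, and whether the probes of these paralogs tell their transcripts apart was not tested.

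Mtf1, which encodes the metal-responsive transcription factor, had 3 probes. The brightest stood at 3.12 and 3.02 on the fluoxetine arrays and at 2.85 and 2.86 on the control arrays, without overlap. Its change was 0.22 ± 0.07 and did not pass (adjusted p = 0.103, limma). The next probe gave nearly the same change, 0.21, with 0.56 and 0.51 under fluoxetine and 0.32 and 0.33 in control. The dimmest, at −1.07 and −0.92 with fluoxetine and −0.92 and −0.87 in control, had a change of −0.10. No Mtf1 probe passed over all kept probes, with adjusted p of 0.128, 0.114 and 0.459 in order of brightness.

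Slc30a1 encodes ZnT1, the exporter at the plasma membrane that carries zinc out of the cell. Its levels were −2.70 and −2.56 on the fluoxetine arrays and −2.09 and −2.27 on the control arrays. Every fluoxetine value lay below every control value. The deposited intensities were low, 85.5 and 109 with fluoxetine and 159 and 131 in control, though well above background. The fall was −0.45 ± 0.10 (adjusted p = 0.0493, limma), just inside the threshold. It was −0.19 (adjusted p = 0.207) with another background correction and −0.31 (adjusted p = 0.0998) with quantile scaling, and was not called under either, and the call held under 3 of 14 other settings. With every probe tested as a separate feature its adjusted p was 0.0591.

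Slc30a5 encodes ZnT5, which loads zinc into the early secretory pathway, and it had 2 probes. The brighter stood at 2.26 and 2.26 on the fluoxetine arrays and at 2.66 and 2.58 on the control arrays. The fluoxetine arrays were nearly equal and both below the control arrays. This probe fell by 0.36 ± 0.07 (adjusted p = 0.0346, limma). The dimmer probe of the same accession was at 0.84 and 0.50 with fluoxetine and at 0.54 and 0.69 in control, with overlap and a change of 0.05 ± 0.15. The mean of both probes was −0.16 and did not pass (adjusted p = 0.245). The difference between the probes was not tested.

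Slc30a2 and Slc30a4 encode ZnT2 and ZnT4, vesicular transporters known from milk secretion, where loss of ZnT4 causes the lethal milk trait in mice. Slc30a2 had levels of −2.71 and −2.14 on the fluoxetine arrays and −2.82 and −3.06 on the control arrays. The groups did not overlap, but the fluoxetine arrays lay far apart. The change of 0.51 ± 0.23 did not pass (adjusted p = 0.168, limma), and it was 0.80 without fluoxetine 1 and 0.23 without fluoxetine 2. Slc30a4 was at 4.33 and 4.19 with fluoxetine and at 4.18 and 4.21 in control. Its groups overlapped, and the change was 0.06 ± 0.08 with a 95% interval from −0.17 to 0.30.

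Slc39a14 encodes ZIP14, an importer of zinc, iron and manganese at the cell surface. Its levels were 0.82 and 0.79 on the fluoxetine arrays and 0.29 and 0.24 on the control arrays. Both groups were tight and far apart relative to their spread, which 2 arrays per group measure poorly. The rise was 0.54 ± 0.07 (adjusted p = 0.0181, limma), with a 95% interval from 0.35 to 0.73. Its change was at least as large in size as that of 77.5% of the genes tested. Its size hardly moved with 1 array left out (0.52 to 0.57), while the adjusted p then lay between 0.0527 and 0.104.

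Slc39a10 encodes ZIP10, a plasma membrane importer that MTF1 represses in mouse cells, and it had 2 probes. The brighter was at 1.62 and 1.62 on the fluoxetine arrays and at 1.35 and 1.35 on the control arrays. The groups were separated by far more than the spread within each, but 2 arrays per group measure that spread poorly. The change of 0.27 ± 0.06 missed the threshold (adjusted p = 0.0512, limma) and passed under quantile scaling (adjusted p = 0.0456), among other settings. The dimmer probe, listed under another accession of the gene, was at −1.58 and −1.05 with fluoxetine and at −1.18 and −1.23 in control. It overlapped, with a change of −0.11 ± 0.21, and the mean of both probes was 0.081 (adjusted p = 0.616). Slc39a1, which encodes ZIP1, a widely made importer, was at 3.98 and 3.90 with fluoxetine and at 3.71 and 3.85 in control. Its groups did not overlap, but the change of 0.16 ± 0.09 did not pass (adjusted p = 0.23, limma).

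**Figure D2:**
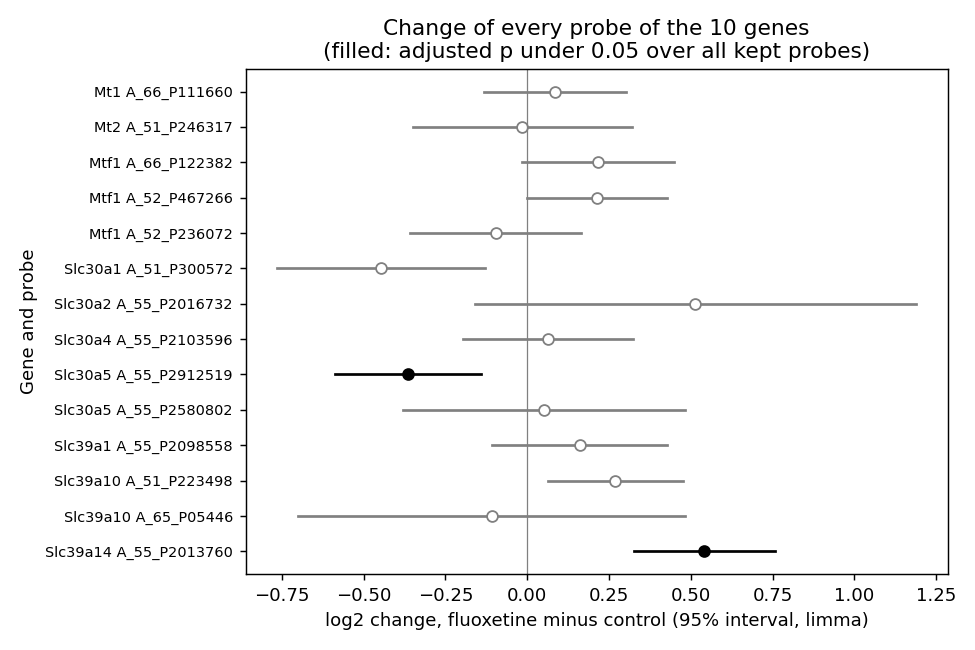
Change of each of the 14 probes (log2, fluoxetine minus control) with its 95% interval from limma, filled where the adjusted p over all kept probes was under 0.05. The filled probes are those of Slc39a14 (0.54) and the brighter probe of Slc30a5 (−0.36), and the probes of Slc30a5, Slc39a10 and Mtf1 include some on either side of 0.

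Taken probe by probe, 2 of 14 probes passed, beside 26.5% of the 28270 kept probes. The groups did not overlap for 10 of the 14, against 73.2% of kept probes. Of the genes, 7 had a single probe, so no second probe bears on the rise of Slc39a14 or the fall of Slc30a1.

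Across the ZnT family, 7 of 10 genes were tested, of which 1 rose, 2 fell and 4 did not pass (median change 0.06). Over all genes tested, 28.1% were called, and the median change was 0.02. The one that rose was Slc30a9, known as a mitochondrial zinc exporter, by 0.68 ± 0.07 (adjusted p = 0.0151, limma). It stood at 1.01 and 0.91 with fluoxetine and at 0.29 and 0.27 in control, and its dimmer probe changed by 0.13, which did not pass. Slc30a6 (0.07) and Slc30a7 (−0.05), whose products work in the secretory pathway, did not pass. Slc30a3, Slc30a8 and Slc30a10, which serve synaptic vesicles, insulin granules and manganese export, fell below the background filter and were not tested.

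Across the ZIP family, 11 of 14 genes were tested, of which 2 rose, 0 fell and 9 did not pass (median change 0.16, beside 16.3% of all genes called higher and 11.8% lower), and 3 of the 9 were at an estimate below 0. Beside Slc39a14, the gene that rose was Slc39a9, which encodes ZIP9, by 0.60 ± 0.07 (adjusted p = 0.0165, limma). It was at 0.12 and 0.07 with fluoxetine and at −0.53 and −0.48 in control. Its dimmer probe moved the other way, at −3.46 and −3.70 with fluoxetine and −3.01 and −3.04 in control, and fell by 0.56 (adjusted p = 0.0421 over kept probes). Slc39a6 (0.23) and Slc39a7 (0.17), which encode ZIP6 of the plasma membrane and ZIP7 of the endoplasmic reticulum, did not pass. Slc39a8, which encodes ZIP8, the closest relative of ZIP14, was at −0.42 ± 0.17 and did not pass (adjusted p = 0.147). Slc39a5 and Slc39a12 were too dim to be tested, and Slc39a3 had no assigned probe.

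**Figure D3:**
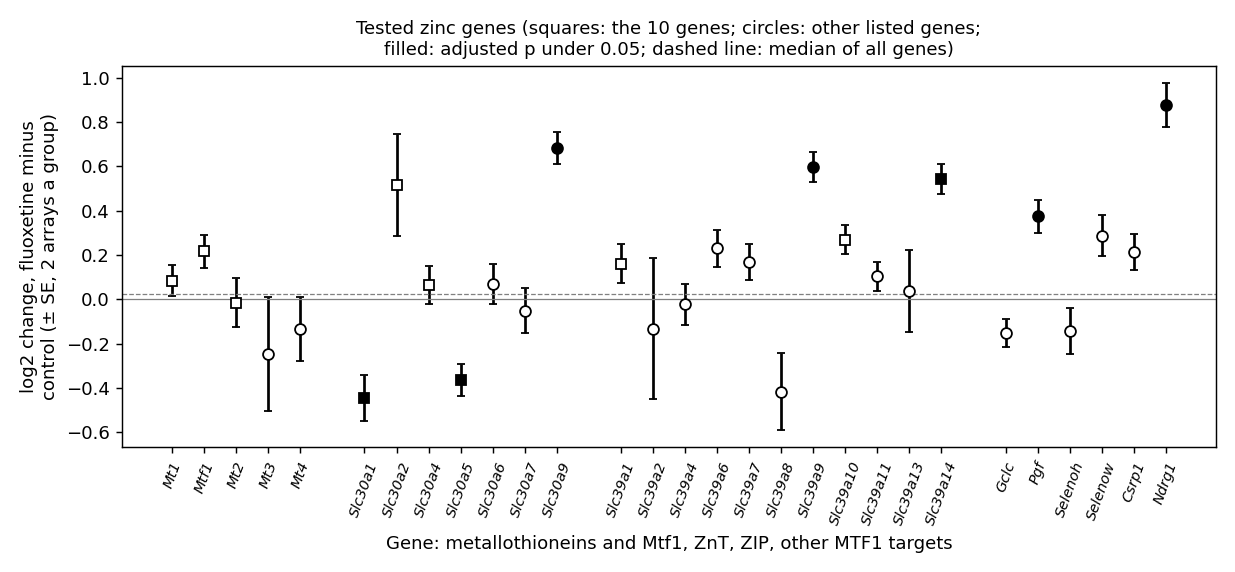
Change (log2, fluoxetine minus control, ± SE, 2 arrays a group) of the tested metallothionein genes and Mtf1, ZnT genes, ZIP genes and other MTF1 targets, with squares for the 10 genes, circles for the others and filled symbols at an adjusted p under 0.05. The dashed line is the median of all genes (0.02), and the filled symbols are Slc30a1, Slc30a5, Slc30a9, Slc39a9, Slc39a14, Pgf and Ndrg1.

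The other metallothionein genes, Mt3 (−0.25 ± 0.26) and Mt4 (−0.13 ± 0.15), known from brain and from stratified epithelia, overlapped between the groups and did not pass. Of 6 other genes named as MTF1 targets in mouse work, 2 rose, 0 fell and 4 did not pass, with a median change of 0.25, beside 16.3% called higher and a median of 0.02 over all genes. Ndrg1, a stress-responsive gene also induced by hypoxia, rose by 0.88 ± 0.10 (adjusted p = 0.0162, limma), with 6.08 and 6.16 under fluoxetine and 5.15 and 5.35 in control. Pgf, which encodes placental growth factor, rose by 0.38 ± 0.08 (adjusted p = 0.0369). Gclc, an enzyme of glutathione synthesis, was at −0.15, Csrp1 at 0.21 and the selenoprotein genes Selenow and Selenoh at 0.29 and −0.14.

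Of 14 copper handling genes, 13 were tested, of which 4 rose, 2 fell and 7 did not pass (median change 0.09, beside 0.02 over all genes, of which 16.3% were called higher and 11.8% lower). The copper transporter genes Slc31a2 (1.00 ± 0.06, adjusted p = 0.0107) and Slc31a1 (0.66 ± 0.07) rose, as did the metalloreductase gene Steap3 (0.76 ± 0.07) and the copper ATPase gene Atp7a (0.45 ± 0.10, adjusted p = 0.0438, limma). Both probes of Slc31a2 rose, the dimmer by 1.29. The dimmer probe of Atp7a changed by 0.10 and did not pass, and over all kept probes its brighter probe did not pass either (adjusted p = 0.0534). The other copper ATPase gene, Atp7b (−0.51 ± 0.07), and the mitochondrial copper chaperone gene Sco1 (−0.62 ± 0.08) fell. The dimmer probe of Sco1 changed by −0.35 and did not pass (adjusted p = 0.0935 over kept probes, limma). Among genes that did not pass, the dimmer probe of Ccs changed by 0.46 and passed over kept probes (adjusted p = 0.0365, limma). Steap2 was at 0.37 and its dimmer probe at −0.69, and neither passed. Atox1, the copper chaperone of the ATPases, was at 0.01.

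**Figure D4:**
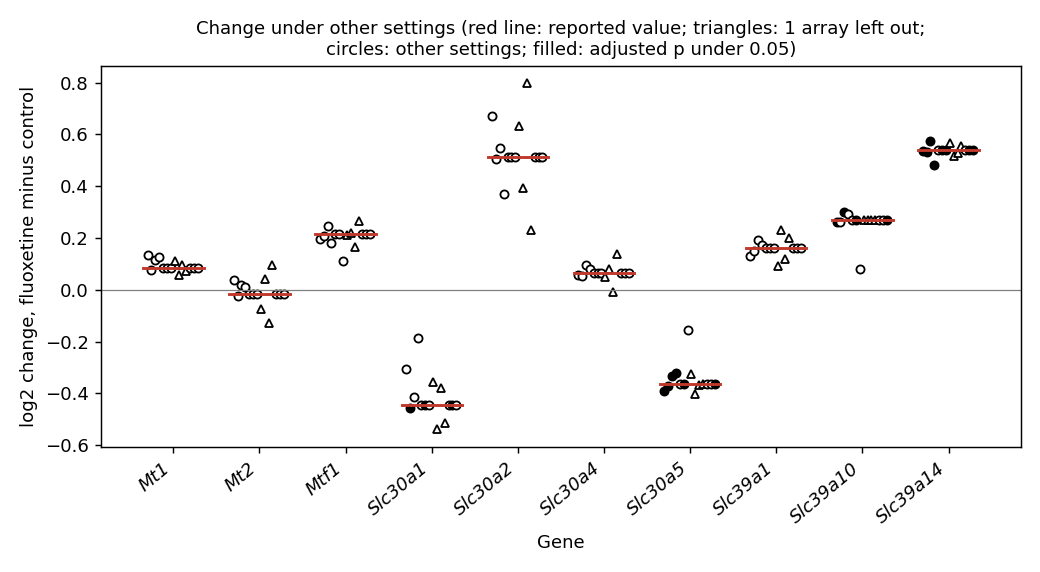
Change of each of the 10 genes (log2, fluoxetine minus control) under the other settings, with a red line at the reported value, triangles for fits without 1 array and filled symbols at an adjusted p under 0.05. All values of Slc39a14 lie between 0.48 and 0.57, and those of Slc30a1 spread from −0.54 to −0.19.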

How the data were processed

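Per the file headers, the authors extracted spot intensity on a linear scale with Agilent Feature Extraction 12.1.0.3. The deposited processed signal is background-corrected and not scaled between arrays. The deposited 0 or 1 marks for spots well above background, saturated or outlying were also used. Later steps by the authors are not given in the sources used here.

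Analysis used R 4.3.3 and limma 3.58.1. Control and outlying spots were left out (47 probes), spots of a probe were averaged, and log2 values were taken relative to the 75th percentile of all non-control spots of each array. RefSeq accessions without versions gave 1 symbol for 34675 of 56605 probes and none for 21930 (gene table of GRCm38.p6). A probe was kept if both arrays of either group read it well above background, and the brightest represented its gene. The fit used lmFit and eBayes with group as the only term and Benjamini-Hochberg adjustment, and was tested on simulated data. The number of arrays limits the precision.

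All 10 genes are named, with every probe, and up to 12 called genes of the other lists. Genes and lists were chosen with earlier results of these data known. Normexp on the median spot signal, the 75th percentile over distinct probes and a crossed pairing were added after seeing the data.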

Additional observations from a re-analysis of the deposited data

How the results depend on the processing

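Over 14 other settings, the 10 genes gave 140 changes, of which 105 kept their direction and side of the threshold, 25 were no longer called, 4 became called and 6 changed sign. The 4 were all Slc39a10. With dim probes kept in, limma called 0 genes, 0 of the 10 and 0 probes, with 5501 genes, 4 of the 10 and 11981 probes at an unadjusted p under 0.05, and the test then ran over 23771 genes and 56558 probes. With the mean of all kept probes, 1 of the 10 was called, Slc39a14. With 1 array left out, calls ran from 0 to 2219 genes, 0 to 0 of the 10 and 0 to 3863 probes. With the replicate number as a block, 1033 genes, 0 of the 10 and 0 probes were called, with 4897 genes, 3 of the 10 and 10057 probes at an unadjusted p under 0.05. The samples share only a number: deviations of same-numbered samples correlated at −0.117 across genes. With the numbers crossed, 2403 genes, 2 of the 10 (Slc30a1 and Slc39a14) and 3466 probes were called. Mt2 changed sign to 0.039 with quantile scaling, 0.017 with the percentile over distinct probes and 0.013 with normexp. With 1 array left out it ran from −0.13 to 0.097, positive without control 2 (0.042) or fluoxetine 2, and Slc30a4 ran from −0.010 without fluoxetine 1 to 0.14. The causes were not tested. A slide block could not be run with 1 slide, nor normexp on the mean spot signal, which the deposited data lack. All 14 probes were well above background on all 4 arrays, so none of the 10 genes has only a bound.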
